A study of Mus musculus with 12 samples.

Results

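The genes described here encode the kinases and transcription factors that carry the insulin signal from the receptor's substrates to metabolism: Pik3r1, Pik3ca, Pik3cb, Pdpk1, Akt1, Akt2, Gsk3a, Gsk3b, Foxo1 and Foxo3. They are 10 of 19938 genes tested. Each was read from the probe set that the platform's annotation pairs with that symbol and no other, and where there were several, from the one with the highest mean over all arrays. Expression was measured in the livers of 12 C57Bl/6J mice, 1 Affymetrix array per mouse. All mice received an adenovirus by vein at 10 weeks of age, and fed animals were examined 7 days afterwards. In 6 mice the virus carried a scrambled short hairpin RNA without an intended target (sh scramble), and in 6 the hairpin targeted Grb14 (sh Grb14), an adapter that binds and inhibits the activated insulin receptor. The sources used here give neither the promoter of the hairpin nor the sex of the mice, and livers without virus were not analysed here. Both groups received virus, and whether they responded to it alike was not measured.

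In hepatocytes, insulin activates class I PI3K, a lipid kinase made of a regulatory and a catalytic subunit, and its lipid product brings the kinases PDK1 and AKT to the membrane. Activated AKT phosphorylates and inhibits GSK3, which relieves glycogen synthase, and phosphorylates FOXO transcription factors, which then leave the nucleus and stop driving genes of glucose production. These steps run through phosphorylation, and the arrays measured transcript levels alone.

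Akt1 rose and Akt2 fell, Pik3cb rose while Pik3r1, Pik3ca and Pdpk1 fell, Gsk3b rose, and Foxo1 and Foxo3 both fell. All of these changes were small. By limma's test with Benjamini-Hochberg adjustment over all genes, at a threshold of 0.05, 3 of the 10 genes were higher and 6 lower in sh Grb14 livers, and Gsk3a did not pass. Among all genes tested, 65.3% passed, 25.8% higher and 39.5% lower, so that 9 of 10 stands against a high background. Brighter genes passed more often: of the 9969 genes above the median level, 7869 passed, 3818 higher and 4051 lower. All 10 genes lie in that brighter set, and tested within it all 10 passed, 4 higher and 6 lower. The groups did not overlap in 7 of the 10 genes, against 41.2% of all genes. None of the 10 both passed and changed by 1.5-fold or more, against 18.8% of all genes. Over the probe sets chosen, the largest change was 1.33-fold. The median size of the change, in either direction, was 0.25 log2 units over the 10 genes and 0.23 over all genes, and the median signed changes were −0.12 and −0.10.

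The arrays fell cleanly into their groups. Grb14 itself was lower in every sh Grb14 liver (change −1.91, SE 0.059, limma adjusted p = 7.99e-14), with 26.7% of the sh scramble level left. Over all 35556 probe sets, array medians lay between 7.06 and 7.17 on the log2 scale. The first principal component of the genes tested held 84.8% of the variance. The 8 measured hepatocyte markers had mean log2 levels of 13.3 to 13.4 over the sh scramble livers and of 12.9 to 13.0 over the sh Grb14 livers. Of these 8, 7 fell (median change −0.26). In the same livers all 8 measured markers of monocytes and recruited macrophages rose (median 2.21), as did 6 of 7 T cell markers (median 1.79), 5 of 6 NK and cytotoxic markers (1.61), 5 of 6 neutrophil markers (1.40), 6 of 8 stellate cell and fibroblast markers (1.05) and all 7 cycling cell markers (2.82). The remaining T cell marker fell, and of the stellate cell and fibroblast markers 1 fell and 1 did not pass. For NK and cytotoxic cells and for neutrophils, 1 marker each did not pass. Of 7 sinusoidal endothelial markers 5 fell and 2 rose (median −0.26). Among 6 Kupffer cell markers 2 rose and 4 did not pass (0.18), among 5 cholangiocyte markers 1 rose and 4 did not pass (0.042), among 5 B and plasma cell markers 4 rose and 1 did not pass (0.39), and of 2 erythroid markers 1 rose and 1 fell. Whole liver was measured, so fewer cells of a type and less RNA per cell cannot be told apart, and the part of cell composition in the changes below was not tested.

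**Figure D1:**
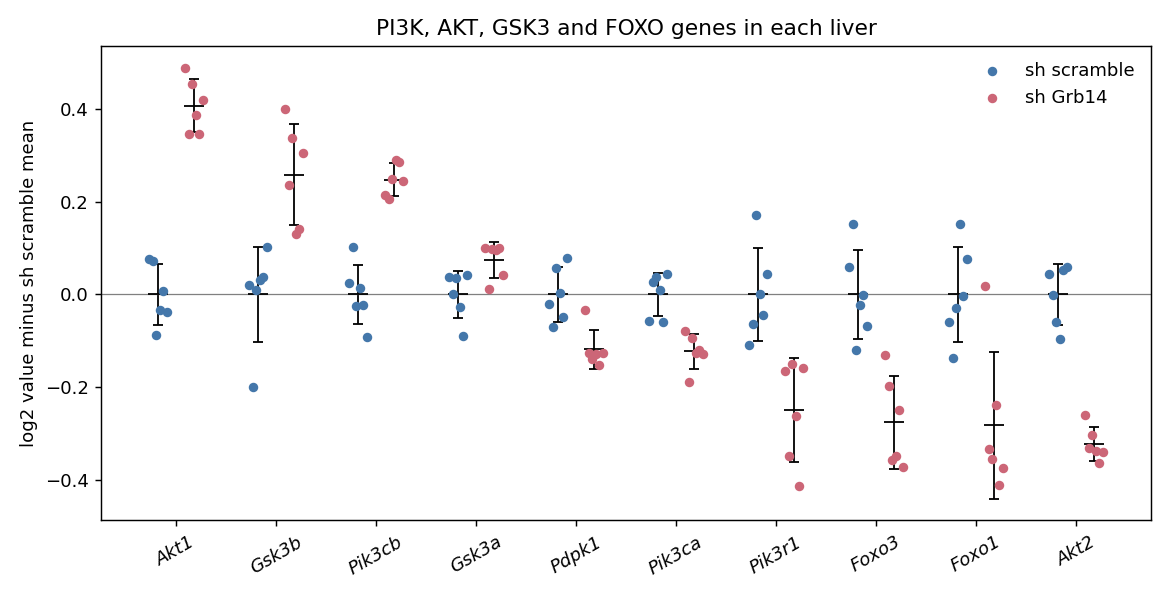
Log2 value of each of the 10 genes in each liver, minus that gene's sh scramble mean, ordered by change; each point is 1 mouse, and the black marks are group means with the SD over 6 mice. The sh Grb14 points for Akt1 lie wholly above, and those for Akt2 wholly below, the sh scramble points, whereas those for Gsk3a, Pdpk1 and Foxo1 overlap them.

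AKT1 and AKT2 are closely related kinases. AKT2 is the isoform known for insulin's metabolic actions in liver, and AKT1 is better known for growth. Akt1 had log2 values of 10.64 (lowest), 10.71 (median) and 10.80 (highest) in sh scramble livers and of 11.07, 11.13 and 11.21 in sh Grb14 livers. Every sh Grb14 liver was thus above every sh scramble liver. The mean went from 10.72 ± 0.065 to 11.13 ± 0.058 (SD, n = 6 each), a rise of 0.41 (SE 0.040, 1.33-fold; limma adjusted p = 1.22e-07). The two-sided exact permutation p was 0.00216, the lowest value possible with 6 mice against 6. Of all genes, 27.6% changed by more than Akt1.

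Akt2 went the other way in all 6 sh Grb14 livers. Its lowest, median and highest log2 values were 11.41, 11.52 and 11.56 in sh scramble livers and 11.14, 11.17 and 11.24 in sh Grb14 livers, again without overlap. The mean fell by 0.32 (SE 0.036), from 11.50 ± 0.065 to 11.18 ± 0.036 (SD, n = 6 each), 1.25-fold lower (limma adjusted p = 6.42e-07; exact permutation p = 0.00216). These values come from probe set 10374364. Akt2 was the only one of the 10 genes with a second probe set, 10551393, which had medians of 11.40 and 10.96 in the same order and fell by 0.44 (exact permutation p = 0.00216). Both probe sets put every sh Grb14 liver below every sh scramble liver, and they differ in the size of the fall.

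The sequences before the outermost listed start of Akt1 and Akt2 are shown because these paralogues moved in opposite directions. They are the 250 bases upstream of the start, 5′ to 3′ on the gene's strand, from RefSeq's GRCm38.p6, in which 2 starts are listed for Akt1 and 4 for Akt2. Capitals mark the FOXO core motif TGTTTAC and the GC box GGGCGG, each searched on both strands (GTAAACA and CCGCCC on the other). The windows are chr12:112674885-112675134 on the − strand and chr7:27591302-27591551 on the + strand.
Akt1: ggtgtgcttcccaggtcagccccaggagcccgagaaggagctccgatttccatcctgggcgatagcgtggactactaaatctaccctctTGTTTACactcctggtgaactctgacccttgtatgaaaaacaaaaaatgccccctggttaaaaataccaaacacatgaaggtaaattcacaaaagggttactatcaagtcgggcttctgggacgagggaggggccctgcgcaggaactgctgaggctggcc
Akt2: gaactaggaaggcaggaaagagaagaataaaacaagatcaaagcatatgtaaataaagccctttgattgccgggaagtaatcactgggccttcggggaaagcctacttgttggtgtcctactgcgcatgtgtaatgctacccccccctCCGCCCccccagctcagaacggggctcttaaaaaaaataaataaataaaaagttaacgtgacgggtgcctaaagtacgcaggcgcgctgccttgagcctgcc
The Akt1 window holds 1 FOXO core, 161 to 155 bases before the start, and no GC box. The Akt2 window holds 1 GC box, 102 to 97 bases before the start, and no FOXO core. Of 32851 windows of this length, taken over all listed starts and not the outermost alone, 3.17% hold a FOXO core and 32.7% a GC box. A GC box did occur in another listed window of Akt1. Akt1 was the only one of the 10 genes with a FOXO core in any of its listed windows. The longer insulin response core TTGTTTTG (CAAAACAA on the other strand), found in 2.21% of all windows, was in none of them. A match in these letters shows neither binding nor its absence.

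Class I PI3K pairs a regulatory subunit with a catalytic one. Pik3r1 encodes p85-alpha, the regulatory subunit that docks on insulin receptor substrates. Its log2 values were 10.95, 11.04 and 11.23 (lowest, median, highest) in sh scramble livers and 10.65, 10.85 and 10.91 in sh Grb14 livers, so the groups lay apart, by a narrow margin. The mean fell by 0.25 (SE 0.056), from 11.06 ± 0.10 to 10.81 ± 0.11 (SD, n = 6 each; limma adjusted p = 0.00103).

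The catalytic subunits moved in opposite directions. Pik3ca, which encodes p110-alpha, the main insulin-responsive catalytic subunit in liver, had log2 values of 10.41, 10.48 and 10.51 in sh scramble livers and 10.28, 10.34 and 10.39 in sh Grb14 livers. It fell by 0.12 (SE 0.036, 1.09-fold lower; limma adjusted p = 0.00680). The groups lay apart by a narrow margin, and 73.1% of all genes changed by more. Pik3cb, which encodes p110-beta, went from 9.62, 9.71 and 9.81 to 9.92, 9.96 and 10.002, with every sh Grb14 liver above every sh scramble liver. It rose by 0.25 (SE 0.040, 1.19-fold; limma adjusted p = 4.16e-05).

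Pdpk1 encodes PDK1, the kinase that phosphorylates AKT in its activation loop. Its log2 values were 10.84, 10.90 and 10.98 in sh scramble livers and 10.76, 10.78 and 10.87 in sh Grb14 livers. The sh Grb14 livers sat low except for replicate 1, at 10.87, which lay inside the sh scramble range. The fall of 0.12 (SE 0.037) passed the test (limma adjusted p = 0.0106; exact permutation p = 0.00649), and 74.2% of all genes changed by more.

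GSK3-alpha and GSK3-beta are kinases that restrain glycogen synthase until AKT inhibits them. Gsk3b had log2 values of 9.90, 10.13 and 10.20 in sh scramble livers and 10.23, 10.37 and 10.50 in sh Grb14 livers, which lay apart by a narrow margin. It rose by 0.26 (SE 0.057, 1.20-fold; limma adjusted p = 0.000914). With each array centred on its median over the genes tested, the rise was 0.11 and no longer passed (adjusted p = 0.0824; range over all alternatives 0.000132 to 0.0824). Gsk3a had values of 11.35, 11.46 and 11.48 against 11.45, 11.53 and 11.54, and the groups overlapped. Its change of 0.074 (95% interval 0.0033 to 0.15, not adjusted for the number of genes) did not pass (limma adjusted p = 0.0616; exact permutation p = 0.0173). The sign for Gsk3a depended on the scaling, with −0.073 after centring on the median (adjusted p = 0.0399) and 0.086 after a second quantile normalization (adjusted p = 0.0402; range over all alternatives 0.0378 to 0.799). Leaving out sh Grb14 replicate 2 gave 0.087 and a pass (adjusted p = 0.0378).

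FOXO1 and FOXO3 are the transcription factors at the end of this branch. FOXO1 is the best known of them in liver, as a driver of glucose production in fasting. Foxo1 had log2 values of 9.92, 10.04 and 10.21 in sh scramble livers and 9.65, 9.71 and 10.08 in sh Grb14 livers. Replicate 1 of the sh Grb14 group, at 10.08, lay among the sh scramble livers, and the other sh Grb14 livers lay below all of them. The mean fell by 0.28 (SE 0.069), from 10.06 ± 0.10 to 9.77 ± 0.16 (SD, n = 6 each; limma adjusted p = 0.00196; exact permutation p = 0.0108). Foxo3 went from 9.23, 9.34 and 9.51 to 8.98, 9.05 and 9.22, with the groups apart by a narrow margin, a fall of 0.28 (SE 0.056; limma adjusted p = 0.000463).

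The windows of Foxo1 and Foxo3 are shown as those of paralogues that moved the same way. They are taken and marked as for Akt1, at chr3:52268087-52268336 on the + strand and chr10:42276696-42276945 on the − strand, with 1 start listed for each gene.
Foxo1: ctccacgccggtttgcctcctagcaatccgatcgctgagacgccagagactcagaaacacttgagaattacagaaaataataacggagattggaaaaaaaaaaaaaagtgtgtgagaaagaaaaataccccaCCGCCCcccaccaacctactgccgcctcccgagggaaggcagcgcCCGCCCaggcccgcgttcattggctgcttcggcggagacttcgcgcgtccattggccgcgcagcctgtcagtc
Foxo3: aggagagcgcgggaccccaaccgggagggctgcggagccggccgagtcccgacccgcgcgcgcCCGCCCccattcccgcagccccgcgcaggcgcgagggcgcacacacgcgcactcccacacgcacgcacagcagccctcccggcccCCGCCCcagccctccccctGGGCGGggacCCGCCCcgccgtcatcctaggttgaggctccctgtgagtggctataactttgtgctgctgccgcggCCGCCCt
Foxo1 has GC boxes at 118 to 113 and 73 to 68 bases before the start, and Foxo3 has 5, of which the nearest lies 7 to 2 bases before it. Neither window holds the FOXO core. The 2 windows differ in base composition: Foxo1 has 56% G and C and 20 CpG dinucleotides, and Foxo3 has 76.4% and 31, where the median window has 52.4% and 6. A GC box was also found in the outermost windows of Akt2, Gsk3a, Pik3ca, Pik3cb and Pik3r1, which makes 7 of the 10 genes. Of these 7, Pik3cb rose, Gsk3a did not pass and 5 fell, and of the 3 without one in that window Akt1 and Gsk3b rose and Pdpk1 fell. Pdpk1, like Akt1, has a GC box in another listed window. A link between GC boxes and the direction of change was not tested.

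The changes were next compared within pairs of paralogues. The difference of the 2 log2 values on an array does not move when a constant is added to that array, so centring cannot alter it, and only its shift between groups is read here. Akt1 minus Akt2 lay between −0.88 and −0.70 in sh scramble livers and between −0.10 and −0.02 in sh Grb14 livers. The shift was 0.73 (SE 0.031), with no overlap (two-sided exact permutation p = 0.00216; adjusted over the 4 pairs, 0.00433). Pik3ca minus Pik3cb went from between 0.67 and 0.89 to between 0.34 and 0.46, a shift of −0.37 (SE 0.039), again in all 6 sh Grb14 livers (exact permutation p = 0.00216; adjusted 0.00433).

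The other pairs were closer. Gsk3a minus Gsk3b shifted by −0.18 (SE 0.066) from a median of 1.31 to one of 1.10, and the groups overlapped (exact permutation p = 0.0260; adjusted 0.0346). This call rested on single mice: without sh scramble replicate 2, or without sh Grb14 replicate 1, 2, 3 or 6, the adjusted exact permutation p was between 0.0606 and 0.0722, with shifts of −0.14, −0.16, −0.18, −0.17 and −0.17. For Foxo1 minus Foxo3 the shift was −0.0064 (SE 0.089), with medians of 0.75 and 0.70 (exact permutation p = 0.933; adjusted 0.933). The spread within the groups was wide for that pair, from 0.42 to 0.88 in sh scramble livers.

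**Figure D2:**
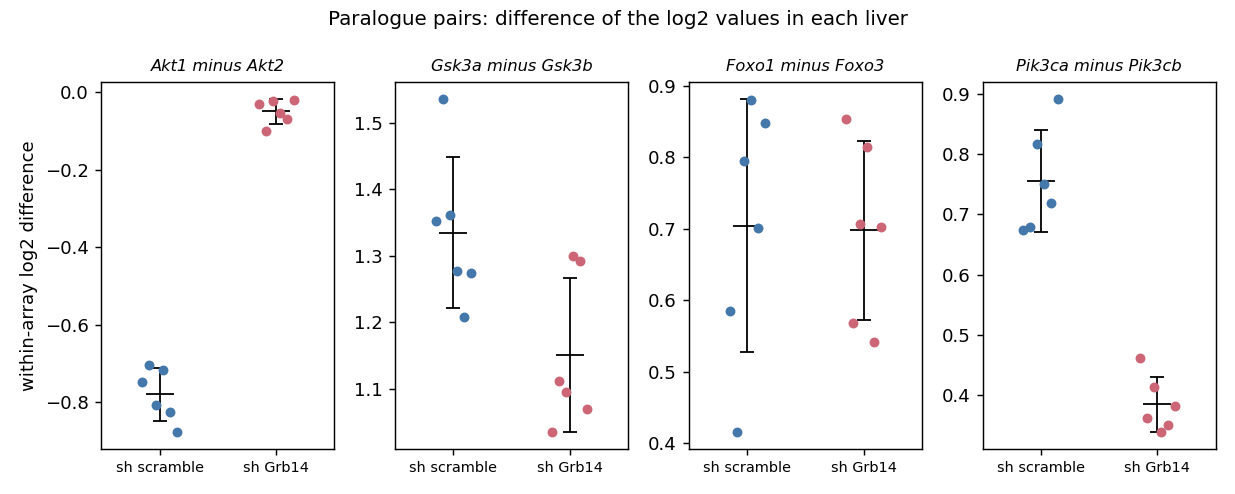
Difference of the log2 values of 2 paralogues on each array, for the 4 pairs; each point is 1 mouse, the black marks are group means with the SD over 6 mice, and the vertical scales differ between panels. Akt1 minus Akt2 and Pik3ca minus Pik3cb separate the groups completely, and Foxo1 minus Foxo3 does not separate them.

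How the arrays are scaled matters for changes of this size. Centring each array on its median over the 19938 genes tested moved the median change of all genes from −0.10 to −0.25. Centring on the upper quartile of the same genes moved it to −0.19. After centring on the median, 84.3% of all genes passed, and 23.0% of those were higher, against 39.5% of them as deposited. Of the 10 genes, 2 then rose and 7 fell. Akt1 (0.26), Pik3cb (0.10), Akt2 (−0.47), Foxo1 (−0.43), Foxo3 (−0.42), Pik3r1 (−0.40), Pik3ca (−0.27) and Pdpk1 (−0.26) kept both direction and call.

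**Figure D3:**
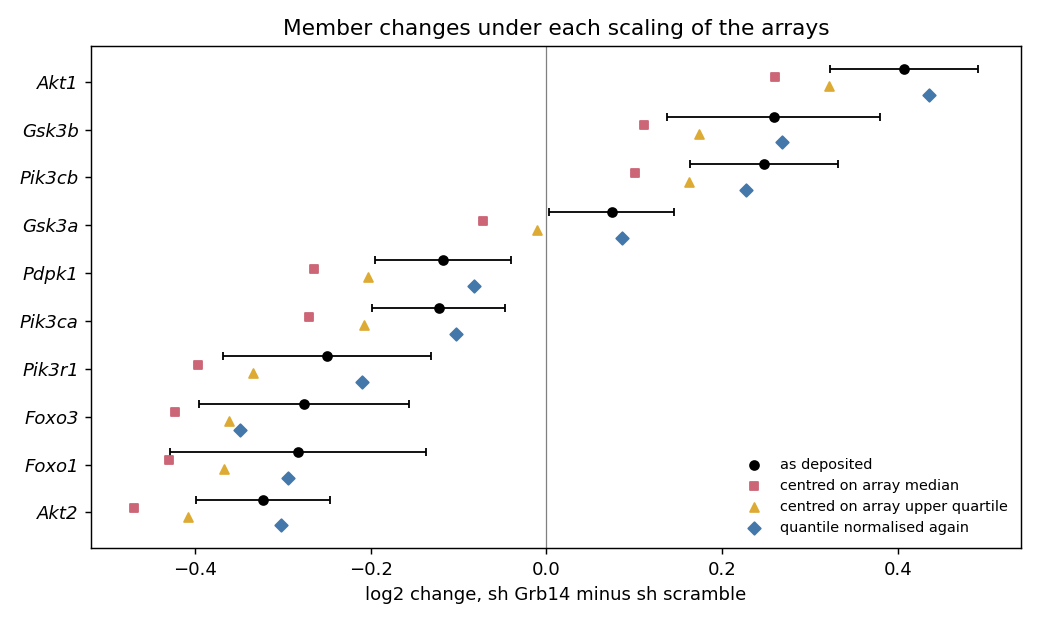
Log2 change of each of the 10 genes, sh Grb14 minus sh scramble, under 4 scalings of the arrays; the bars on the circles are unadjusted 95% intervals of the fit to the deposited values. Centring moves every gene to the left, and Gsk3a is the gene that crosses 0.

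Single mice of a group were often at its edge. Replicate 1 of the sh Grb14 group had the highest value of its group in 7 of the 10 genes (Pik3ca, Pdpk1, Akt1, Akt2, Gsk3b, Foxo1 and Foxo3), whereas it was the highest in 22.4% of all genes. Without it, the fall of Foxo1 was 0.34 in place of 0.28. Among sh scramble livers, replicate 6 was highest in 5 of the 10 genes and in 24.1% of all genes. The SD within a group lay between 0.035 (Pik3cb, sh Grb14) and 0.16 (Foxo1, sh Grb14).

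Of the 6 other class I PI3K genes measured, 4 rose, by 0.75 to 1.45 log2 units, and 2 did not pass. Pik3cg and Pik3cd encode p110-gamma and p110-delta, catalytic subunits known mainly from leukocytes, and Pik3r5 and Pik3r6 encode the regulatory partners of p110-gamma. Pik3cg had log2 values of 7.36, 7.41 and 7.52 (lowest, median, highest) in sh scramble livers and 8.71, 8.88 and 9.09 in sh Grb14 livers, and rose by 1.45 (SE 0.067; limma adjusted p = 9.12e-12). Pik3cd went from 7.30, 7.45 and 7.58 to 8.56, 8.63 and 8.87, a rise of 1.22 (SE 0.065). For both genes every sh Grb14 liver was above every sh scramble liver. Pik3r5 rose by 0.996 (SE 0.055) and Pik3r6 by 0.75 (SE 0.051). The regulatory subunit genes Pik3r2 and Pik3r3 had changes of 0.064 (95% interval −0.033 to 0.16) and 0.13 (−0.034 to 0.29) that did not pass, and both were negative after centring on the median.

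These rises came with those of leukocyte markers. The mean log2 level over the 8 monocyte and macrophage markers ranged from 7.03 to 7.25 in sh scramble livers and from 9.29 to 9.66 in sh Grb14 livers, and that over the 7 T cell markers from 7.21 to 7.37 and from 8.50 to 8.84. For B and plasma cells the ranges were 6.28 to 6.57 and 6.60 to 6.85. Detection was not called on these arrays, so a low marker cannot be read as absent. The lowest mean of a monocyte and macrophage marker over all arrays was 6.10. The part of these cells in the changes of Pik3cg, Pik3cd, Pik3r5 and Pik3r6 was not tested.

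**Figure D4:**
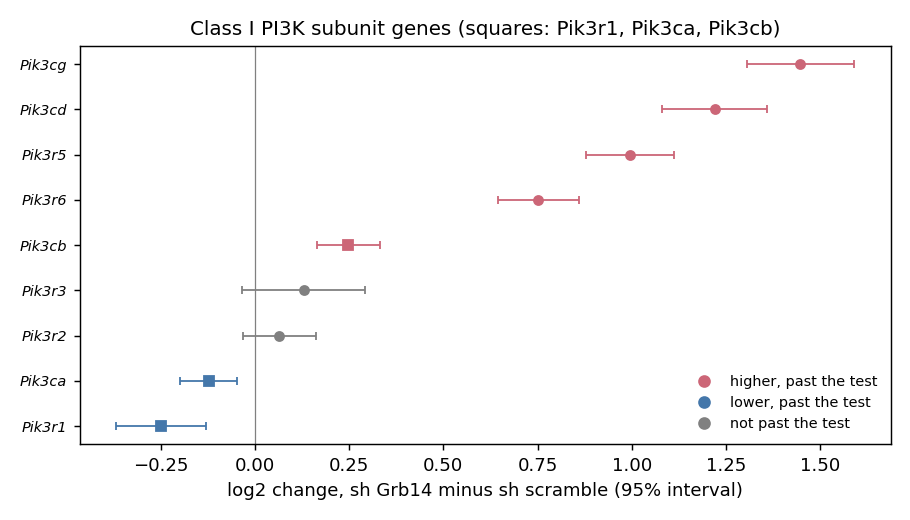
Log2 change, sh Grb14 minus sh scramble, of the 9 measured class I PI3K subunit genes with unadjusted 95% intervals; colours give the call of limma's test, and squares are Pik3r1, Pik3ca and Pik3cb. Pik3cg and Pik3cd lie at 1.45 and 1.22, and Pik3r1 lies lowest at −0.25.

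Other FOXO paralogues fell as well. Foxo4 had log2 values of 8.26, 8.27 and 8.42 in sh scramble livers and 7.63, 7.76 and 7.83 in sh Grb14 livers and fell by 0.54 (SE 0.051; limma adjusted p = 8.78e-08), more than Foxo1 or Foxo3 in size, a difference that was not tested. Foxo6 fell by 0.36 (SE 0.082; adjusted p = 0.00111) from a median of 6.71, below the array medians, where changes can be understated. Of the 8 measured genes in this list of paralogues, 4 rose and 2 fell (median change 0.44). Class II and III PI3K, which make other lipids and serve membrane traffic and autophagy, had 1 gene higher and 3 lower among 5 (median −0.15). Pik3r4, the regulatory subunit of the class III complex, fell by 0.34 (SE 0.045), and the 1 rise, of Pik3c2b (0.17, SE 0.066; named after its value was seen), did not pass under any of the 3 other scalings.

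In the deposited values, genes that oppose PI3K and AKT mostly rose or did not pass. Of 17 measured phosphatases and inhibitors, 9 rose, 1 fell and 7 did not pass (median 0.15). Under each of the 3 other scalings 5 fell. After centring on the median 6 rose, after centring on the upper quartile 8, and after a second quantile normalization 9. Among all genes tested 25.8% rose and 39.5% fell, which is the background for this and the other list counts given here. For brighter genes that background is higher: of the 9969 genes above the median level, 3818 rose and 4051 fell. Inpp5d encodes SHIP1, a lipid phosphatase known mainly from blood cells. It went from log2 values of 8.06, 8.25 and 8.30 to 9.93, 10 and 10.15, without overlap, and rose by 1.79 (SE 0.052; limma adjusted p = 4.15e-14), beside the leukocyte markers given above. Inpp4b, a lipid phosphatase acting on a PI3K product, rose by 1.03 (SE 0.072). Phlpp1, a phosphatase that removes an activating phosphate from AKT, was the 1 gene that fell in the deposited values. It fell by 0.67 (SE 0.068), from values of 9.21, 9.36 and 9.49 to 8.43, 8.76 and 8.82.

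Among 17 measured AKT substrates and partners, 9 rose, 4 fell and 4 did not pass (median 0.20), and after centring on the median 5 rose and 6 fell. Mdm2, the ubiquitin ligase that restrains p53 and is an AKT substrate, rose by 1.26 (SE 0.050), and Tbc1d1, a regulator of glucose transporter traffic, by 1.24 (SE 0.053). Pde3b, the phosphodiesterase through which insulin lowers cyclic AMP, fell by 0.73 (SE 0.060), from log2 values of 11.16, 11.25 and 11.32 to 10.27, 10.54 and 10.70. Mapkap1, which encodes the SIN1 subunit of the complex that phosphorylates AKT beside PDK1, fell by 0.36 (SE 0.045). The groups did not overlap in 7 of the 17 genes, against 41.2% of all genes, and these 4 were chosen among those 7.

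Genes listed as GSK3 substrates and partners moved both ways, with 8 higher, 5 lower and 4 not past the test among 17. For the 17 the median change was 0.10, and −0.044 after centring on the median. Among those of glycogen metabolism, Gys2, Ppp1r3b and Ppp1r3c fell, and Gys1, the muscle isoform of glycogen synthase, stayed short of the threshold with 0.16 (SE 0.088). Gys2, the liver glycogen synthase that GSK3 phosphorylates, went from log2 values of 11.16, 11.25 and 11.37 to 9.90, 10.19 and 10.41, and fell by 1.08 (SE 0.070, 2.11-fold lower; limma adjusted p = 7.25e-10). Ppp1r3b, which brings a phosphatase to glycogen and is listed for that role, not as a GSK3 substrate, fell by 2.15 (SE 0.080). Ppp1r3c, of the same family and listed for the same role, fell by 0.65 (SE 0.16) with overlapping groups. Gys1 and Ppp1r3c are named here after their values were seen. Jun, a transcription factor that GSK3 marks for degradation, rose by 1.39 (SE 0.066), and Gskip, a GSK3 interacting protein, rose by 0.55 (SE 0.093).

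Among 20 cofactors and regulators of FOXO, 14 rose, 1 fell and 5 did not pass (median 0.23), where 25.8% of all genes rose and 39.5% fell. Of the 9969 genes above the median level, 3818 rose and 4051 fell. After centring on the median 9 of the 20 rose and 6 fell. The largest rises were those of Ywhah and Ywhaz, which encode 14-3-3 proteins, the chaperones that hold phosphorylated FOXO in the cytoplasm. Ywhah went from log2 values of 10.83, 10.87 and 10.96 to 11.88, 12.03 and 12.04, without overlap, and rose by 1.12 (SE 0.038; limma adjusted p = 2.36e-13). Ywhaz rose by 0.63 (SE 0.034). The other 14-3-3 genes listed, named after their values were seen, did not all follow. Ywhab (0.21), Ywhag (0.18) and Sfn (0.25) rose, and Ywhae (−0.022) and Ywhaq (−0.14) did not pass. After centring on the median, the rises of Ywhab, Ywhag and Sfn did not pass. Ywhae (−0.17) and Ywhaq (−0.29) then fell.

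Genes listed as FOXO targets in liver did not move in 1 direction. Of 24 measured, 12 fell, 8 rose and 4 stayed short of the threshold, where 39.5% of all genes fell and 25.8% rose. The median change was −0.19 against −0.10 for all genes. The groups did not overlap in 19 of the 24, against 41.2% of all genes. Igfbp1, a secreted binding protein of insulin-like growth factors, went from log2 values of 8.32, 9.52 and 10.11 to 10.61, 11.24 and 11.35 and rose by 1.71 (SE 0.23; limma adjusted p = 6.58e-06). Pdk4, a kinase that shuts off pyruvate dehydrogenase in fasting, rose by 1.65 (SE 0.17), from values of 8.50, 9.41 and 9.73 to 10.69, 10.84 and 11.22. Both genes varied more within a group than any of the 10 pathway genes.

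Klf15, a transcription factor of amino acid breakdown, fell by 1.38 (SE 0.070), from log2 values of 10.16, 10.22 and 10.50 to 8.73, 8.85 and 9.10. Tat, which opens tyrosine breakdown, fell by 1.38 (SE 0.13). G6pc and Pck1, enzymes of glucose production chosen here after their values were seen, went from medians of 13.15 and 12.41 to 12.29 and 11.73, and neither had overlapping groups. Insr and Irs2, also FOXO targets and also chosen after their values were seen, were 1.09 and 0.71 lower (SE 0.041 and 0.097). So within this list Igfbp1 and Pdk4 rose in the livers where G6pc, Pck1, Insr and Irs2 fell, beside falls in 7 of 8 hepatocyte markers, and the part of hepatocyte content in these values was not tested.

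**Figure D5:**
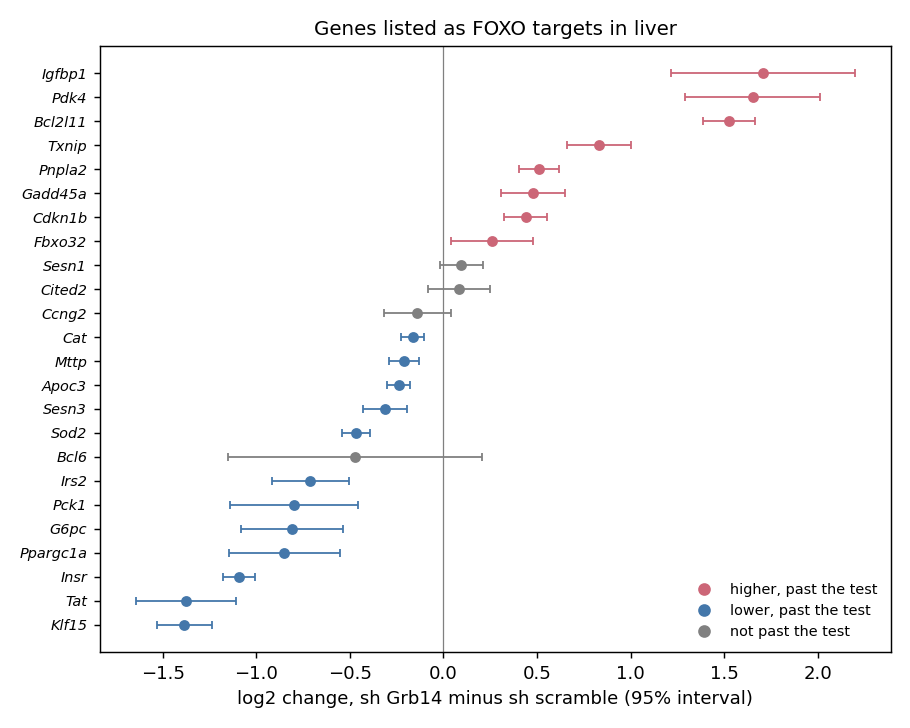
Log2 change, sh Grb14 minus sh scramble, of 24 genes listed as FOXO targets in liver, with unadjusted 95% intervals; colours give the call of limma's test. Changes run from −1.38 (Klf15) to 1.71 (Igfbp1), on both sides of 0.

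The genes most like the 3 members that changed most were found from the root mean square difference, over the 12 mice, between each gene's log2 deviations from its sh scramble mean. Nearest to Akt1 were Med9 (0.038), Capza2 (0.045) and Ptpn13 (0.045), which changed by 0.39, 0.44 and 0.40. Nearest to Akt2 were Uqcrc1, Ube2r2 and Dalrd3, all at 0.038, with changes of −0.33, −0.32 and −0.29. Nearest to Foxo1 were Eci2 (0.082), Sec61b (0.083) and Fnip1 (0.085), with changes of −0.32, −0.26 and −0.27. With 19938 genes to choose from, such likeness is a description of these 12 livers.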

How the data were processed

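The deposited table holds log2 expression values of 35556 probe sets on 12 arrays. The submitters' processing notes name RMA and Partek without versions or roles. Total RNA (100 ng) was labelled for Affymetrix whole-transcript arrays, per the labels' protocols. The chip description file, settings and probe genome build are not given in the sources used here, nor is any batch. Probe sets with 1 symbol in the platform annotation (21789) were kept, those with several (1621) or no listed gene (12146) left out, and the brightest was taken for each of 999 genes with several, which gave 19938 genes. The Entrez identifiers of 21698 probe sets matched the GRCm38.p6 gene table, and no symbol changed. Promoter windows were found for 10 of 10 genes.

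All genes were fitted together with limma 3.58.1 (R 4.3.3; lmFit, eBayes with an intensity trend, all 12 arrays, no covariate), checked on simulated data. A change is the sh Grb14 mean minus the sh scramble mean of the log2 values, given with the fit's standard error (SE). Exact permutation tests were two-sided over all 924 assignments of the mice. For pairs, the SE comes from the group variances. Each mouse is 1 array, and 6 per group limits the precision. The labels give 1 liver per mouse and no replicate numbers, so replicates are numbered in deposit order. Alternatives were 3 other scalings, 3 variance models, a filter on dim genes, 2 rules for probe sets and leaving out each mouse. Counts of lists and members under other scalings were added after the data were seen. The 10 genes and all lists were chosen with earlier results of these data known. From each list, the text names up to 2 genes that rose and 2 that fell most among those past the test with groups apart, plus all measured class I PI3K subunits and FOXO paralogues. Insr, Irs2, G6pc, Pck1, Gys1, Ppp1r3c, Pik3c2b, Ywhab, Ywhag, Sfn, Ywhae and Ywhaq fall outside this rule and were chosen after their values were seen.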

Additional observations from a re-analysis of the deposited data

Results flagged for a closer look

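In 82 groups of 6 livers (the 10 genes, Grb14, the 4 pair differences and the 26 list genes that the rule for named genes chose), 1 liver stood apart from the others by Dixon's ratio in 11, where chance gives about 1 in 20. Among the 10 genes, Pdpk1 in sh Grb14 replicate 1 was high at 10.87 (next 10.78), and Gsk3b in sh scramble replicate 2 was low at 9.90 (next 10.11). The same sh Grb14 replicate 1 was high for Pik3r2, at 8.82. Among the other genes, Foxo4 was high at 8.42 in sh scramble replicate 5, which was low for Pik3r5 (7.75) and Ppp1r3b (10.21). Klf15 was high at 10.51 in sh scramble replicate 6, Inpp5d low at 8.06 in sh scramble replicate 3, and Pik3r3 low at 7.17 in sh scramble replicate 4. In sh Grb14 replicate 2, Pik3r6 was high at 8.29 and Ywhah low at 11.88. In each case the named liver was compared with the 5 others of its group.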

How the results depend on the processing

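Across 15 results, 273 of 291 alternatives kept the main result. For the count of genes past the test, this means a count within 1.5-fold of the main one, as in 20 of 21 alternatives. For each other result it means the same direction and the same side of the threshold. Pik3r1, Pik3ca, Pik3cb, Pdpk1, Akt1, Akt2, Foxo1 and Foxo3 kept both under all 21 alternatives, as did the pairs Akt1 and Akt2 (shift 0.71 to 0.85) and Pik3ca and Pik3cb (−0.39 to −0.33) under all 15. Not every alternative could move these values. Only Akt2 has a second probe set, so the rules for probe sets left the other genes, and pairs without Akt2, unchanged. The filter on dim genes, a fit without the trend and a robust variance estimate could alter the p of a gene but not its change. Between 9 and 10 of the 10 genes passed under every alternative. Centring on the median gave −0.073 for Gsk3a and 0.11 for Gsk3b, and centring on the upper quartile gave −0.011 for Gsk3a. A second quantile normalization gave 0.086 for Gsk3a and 0.054 for Foxo1 minus Foxo3. Testing only the 9969 genes above the median level left 7869 past the test. Gsk3a kept its change of 0.074 and then passed (limma adjusted p = 0.0457). With 1 mouse left out, values ran from 11877 to 13497 genes past the test, 0.057 to 0.087 for Gsk3a, −0.21 to −0.14 for Gsk3a minus Gsk3b, and −0.064 to 0.029 for Foxo1 minus Foxo3. The cause of these differences was not tested. No paired analysis was possible because the labels give no numbers shared between groups. Signal over background limits the dimmer genes, such as Foxo6, for which no detection call was made.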
